A study of Mus musculus with 3 samples.

Results

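The Dividing cells were 1 of the clusters that the authors had named among single cells of mouse melanomas, and their members were taken as deposited, as every cell carrying that cluster name. They numbered 265 of 12670 cells, or 2.09%, with 43 of 4095 cells in the Untreated tumor, 75 of 3726 in the Vemu Regressed tumor and 147 of 4849 in the Vemu Progressed tumor. The study set this cluster aside, along with mitochondria-rich cells, before it compared tumor compartments, and its cells carry no lineage name in the table used here. The questions asked of the data were which lineages divided in each tumor, how deeply these cells were covered, and how their cell cycle programs differed.

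The tumors arose in C57BL/6 mice that carried a Cre-activated Braf V600E allele and a CreER driven by the tyrosinase promoter, which is active in melanocytes, and the study also bred in a Cre-activated tdTomato reporter at Rosa26 (Rosa26.LSL.tdTomato). Tamoxifen given on the skin switched the alleles on, so that all 3 tumors shared the mutant Braf. The groups were no treatment, regression under vemurafenib (an inhibitor of the mutant Braf kinase) and progression under vemurafenib. The labels gave neither the age of the animals nor the days on drug. The paper gives an age range at tumor induction and a fixed short course of drug for its regressing tumor. Each group was 1 tumor, so the groups could not be tested against the variation from animal to animal. All intervals below are exact 95% intervals that cover counting error only, and cells were not treated as replicates.

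A cell that enters the cycle first licenses its replication origins with the Mcm helicase, copies its DNA in S phase, and then builds up the mitotic cyclins, kinesins and checkpoint kinases used in G2 and mitosis. Cyclin D proteins with Cdk4 and Cdk6, held back by the Cdkn2 family of inhibitors, set the pace of entry, and in Braf mutant melanoma this step lies downstream of MAPK signaling. Skin also holds tissue that divides in health, above all the basal epidermis and the matrix of growing hair follicles.

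The share of Dividing cells was 1.05% (0.761 to 1.41) in the Untreated, 2.01% (1.59 to 2.52) in the Vemu Regressed and 3.03% (2.57 to 3.55) in the Vemu Progressed tumor. These shares depended on depth and on the definition of division. Among cells with at least 1000 unique molecular identifiers (UMIs, the tags that count each captured RNA molecule once) the regressed share was 1.09%. Another measure took cells of any cluster with at least 3 UMIs of a list of 52 G2/M genes after thinning to 1000 UMIs. Cells under 1000 UMIs were left out, among them 42 of the 75 regressed Dividing cells and 0 of those elsewhere. The shares were 5.22%, 12.3% and 7.57%, and the Vemu Regressed tumor stood highest. This loose measure also took 25 of 142 regressed neutrophils and 166 of 1733 regressed stroma cells. Of these neutrophils and stroma cells, 0 held at least 2 UMIs of the 4 markers named below. The shares therefore cannot be read as shares of dividing cells.

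The 4 defining markers were found well above the level of the other cells in each tumor. Mki67, which coats mitotic chromosomes, was at 222, 1084 and 241 CPM (the gene's UMIs scaled to a total of 1000000) in the dividing cells of the Untreated, Vemu Regressed and Vemu Progressed tumors, against 6.27, 12.6 and 5.07 CPM in the other cells. Top2a, the topoisomerase that untangles replicated DNA, was at 477, 1929 and 564 CPM against 12.9, 19.7 and 11.1 CPM. Birc5, a subunit of the chromosomal passenger complex, was at 425, 603 and 418 CPM, and Ccnb1, the mitotic cyclin B1, at 88.9, 360 and 122 CPM against 1.75, 1.15 and 1.31 CPM. Since clustering used the same genes, these contrasts are a description and not a test. Not every member carried a marker, however. No UMI of the 4 markers was found in 1 of 43, 1 of 75 and 23 of 147 cells, although the progressed cells were among the deepest.

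The 4 marker genes and the licensing gene Mcm5 are shown by the DNA just before their start, because the cycle lists differed between tumors and their genes are known to be read out through short promoter elements. The stretches come from the RefSeq promoter table on build GRCm38.p6, cover the bases before the outermost annotated start of each gene, and are written 5′ to 3′ on the gene's own strand. Capitals mark the letters TTTGAA (the cell cycle homology region, CHR), CCAAT and TTTNNCGC (an E2F motif), searched on both strands. Mki67 is on the minus strand at chr7:135716451-135716629, Top2a on the minus strand at chr11:99024200-99024439, Birc5 on the plus strand at chr11:117848987-117849236, Ccnb1 on the minus strand at chr13:100786487-100786736 and Mcm5 on the plus strand at chr8:75109259-75109467.
Mki67: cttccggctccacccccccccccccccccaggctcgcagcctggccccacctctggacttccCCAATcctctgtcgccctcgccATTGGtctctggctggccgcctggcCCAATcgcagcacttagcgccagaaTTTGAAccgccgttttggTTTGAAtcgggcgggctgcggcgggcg
Top2a: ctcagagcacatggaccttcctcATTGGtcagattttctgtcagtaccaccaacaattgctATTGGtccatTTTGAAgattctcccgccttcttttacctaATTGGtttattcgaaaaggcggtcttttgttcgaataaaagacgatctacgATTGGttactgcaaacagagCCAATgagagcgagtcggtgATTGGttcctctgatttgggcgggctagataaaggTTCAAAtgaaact
Birc5: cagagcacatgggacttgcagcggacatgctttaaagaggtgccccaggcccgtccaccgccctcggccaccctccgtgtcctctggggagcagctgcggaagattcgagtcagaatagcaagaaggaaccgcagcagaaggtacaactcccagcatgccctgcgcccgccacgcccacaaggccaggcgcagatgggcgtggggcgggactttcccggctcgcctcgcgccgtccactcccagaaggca
Ccnb1: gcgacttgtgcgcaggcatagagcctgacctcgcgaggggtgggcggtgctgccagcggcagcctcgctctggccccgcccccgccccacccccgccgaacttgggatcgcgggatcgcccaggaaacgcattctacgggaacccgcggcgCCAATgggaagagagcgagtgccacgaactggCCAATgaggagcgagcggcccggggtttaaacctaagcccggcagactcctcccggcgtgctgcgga
Mcm5: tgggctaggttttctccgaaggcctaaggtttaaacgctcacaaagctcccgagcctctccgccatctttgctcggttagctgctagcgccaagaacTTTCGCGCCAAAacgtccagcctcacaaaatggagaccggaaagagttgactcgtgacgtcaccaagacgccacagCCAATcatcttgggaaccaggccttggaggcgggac

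Mki67 held 2 CHR and 3 CCAAT matches, Top2a 2 CHR and 6 CCAAT, Ccnb1 2 CCAAT, Birc5 0 of any, and Mcm5 1 CCAAT and 2 E2F matches that overlap each other on opposite strands. Over the full 250 bases before each start, CHR letters were in 41.2%, CCAAT in 74.5% and the E2F motif in 9.80% of 51 windows of the G2/M list, and in 15.99%, 33.8% and 4.28% of all 32851 windows. Windows of replication licensing genes numbered 10, and CHR was in 10%, CCAAT in 80% and E2F in 50% of them. The windows cover 46 of 52 G2/M genes and 9 of 11 licensing genes. A match is a description of the letters and not of binding, and the absence of a match says nothing of the factor.

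Depth separated the regressed tumor from the others. Dividing cells held a median of 11361 UMIs (5380 to 24685) in the Untreated and 11402 (1393 to 33333) in the Vemu Progressed tumor, where the other cells held 4452 and 4490.5. In the Vemu Regressed tumor they held 889 UMIs (435 to 44830), below the 2701 of its other cells. Dividing cells were thus the deeper cells in 2 tumors and the shallower in the remaining one. In all, 42 of the 75 regressed cells (56%) had under 1000 UMIs and none of the dividing cells elsewhere did, and the plot of depth by lineage shows that these 42 were all tumor-like.

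**Figure D1:**
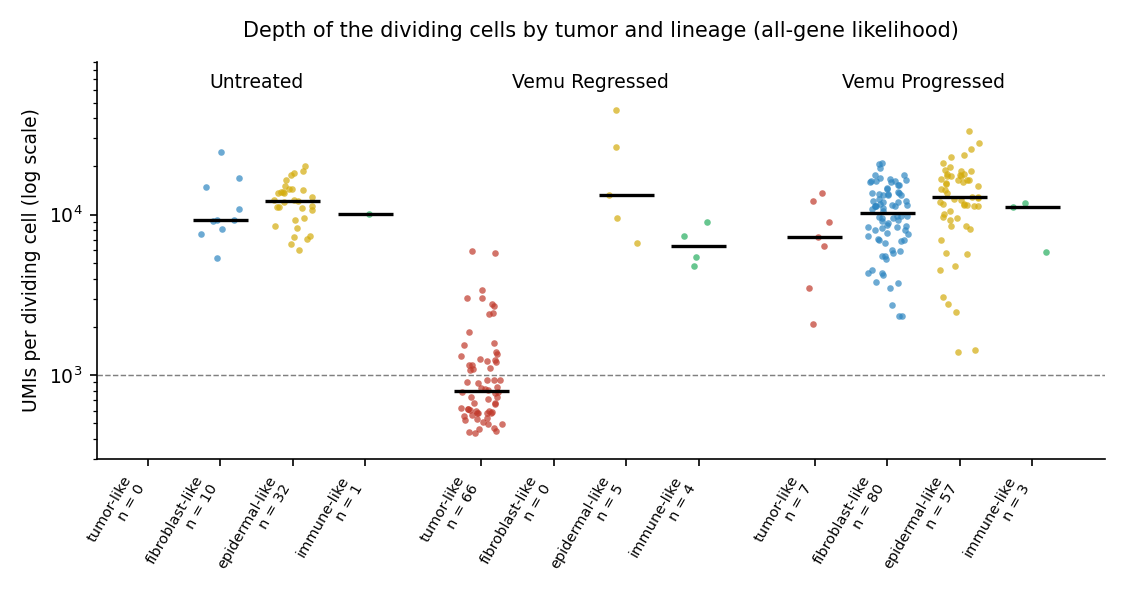
UMIs per dividing cell on a log scale, by tumor and by lineage from the all-gene likelihood. Points are cells, black lines are medians and the dashed line is at 1000 UMIs. The 66 tumor-like cells of the Vemu Regressed tumor sit at a median of 795 UMIs, while the medians of the other groups of at least 5 cells lie between 7235 and 13186 UMIs.

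Lineage was called in 2 ways. The first scored lists of marker genes (the transgene for tumor cells, collagens and Dcn for fibroblasts, keratins for epidermis, and lists for endothelial, mural and immune cells) against their level in the deposited clusters of that lineage. It called 19 epidermal-like, 5 fibroblast-like and 1 T/NK-like of the 43 untreated cells, and 60 fibroblast-like, 39 epidermal-like, 6 tumor-like and 3 myeloid or dendritic-like of the 147 progressed cells. In the regressed tumor it called 19 tumor-like, 15 fibroblast-like, 4 T/NK-like and 3 epidermal-like cells and left 28 of 75 without a call. A further 10, 1 and 24 cells went to the mural list, whose level in the blood vessel cluster was only 102 CPM. Over these 35 cells Acta2 held 50, Cspg4 47 and Notch3 31 UMIs, while the pericyte genes Rgs5, Kcnj8 and Abcc9 held 2, 2 and 0. Because the reference was so low, the mural call was not used further.

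The second call compared each cell with the profiles of 23 deposited clusters by a likelihood over 17748 genes, with the cycle, haemoglobin, Xist and Y-linked genes left out. In the Untreated tumor, 32 of 43 dividing cells were epidermal-like, 10 fibroblast-like and 1 T/NK-like. In the Vemu Regressed tumor, 66 of 75 were tumor-like, 5 epidermal-like and 4 T/NK-like. In the Vemu Progressed tumor, 80 of 147 were fibroblast-like, 57 epidermal-like, 7 tumor-like, 2 dendritic-like and 1 macrophage-like. The main dividing lineage was therefore a different one in each tumor.

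The calls parted most where cells were shallow. Where the score gave 1 lineage other than mural, the likelihood gave the same in 24 of 25 untreated and 108 of 108 progressed cells, but in 25 of 43 regressed cells. All 15 regressed cells scored as fibroblast-like were tumor-like by likelihood, and their scores (0.103 to 0.618) were below the 0.462 to 1.93 of the 60 progressed ones except for a narrow overlap. Non-dividing cells of known cluster, thinned to 889 UMIs, were returned to their own lineage in 95.3% of 150 tumor, 100% of 150 fibroblast and 96% of 150 epidermal cells by likelihood, and in 54%, 98.7% and 90.7% by score. The checked cells were not held out, as they were also part of the profiles and reference levels. Cells under 889 UMIs were not drawn, although regressed Tumor2 cells held a median of 768. The check therefore does not give the accuracy for new or shallower cells. The likelihood calls are used from here on, a choice made after the outcome of the scores had been seen. No doublet caller was run here and the study's methods name none. Fibroblast and epidermal lists were both high (at least 10000 and 5000 CPM) in 3 of the 147 progressed cells and in 0 of the others.

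**Figure D2:**
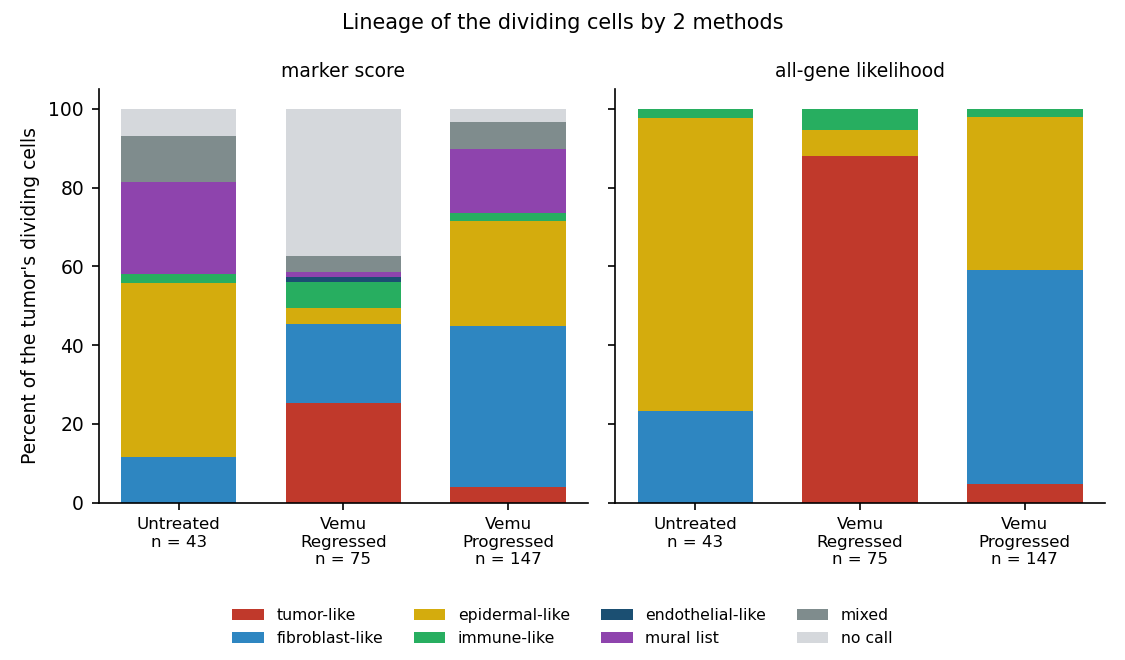
Percent of each tumor's dividing cells by lineage, with the marker score on the left and the all-gene likelihood on the right; n is the number of dividing cells. By likelihood the untreated bar is mostly epidermal-like (74.4%), the regressed bar tumor-like (88%) and the progressed bar fibroblast-like (54.4%) with epidermal-like cells (38.8%).

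Set against the non-dividing cells of their own lineage, tumor-like cells divided in 66 of 476 (13.9%, 10.9 to 17.3) in the Vemu Regressed and in 7 of 167 (4.19%, 1.70 to 8.45) in the Vemu Progressed tumor. In the Untreated tumor 0 of 48 did, which allows a share of up to 6.25% (a count of 0 is taken to allow 3 cells, and the exact interval reached 7.40%). The cells outside the cluster were not all free of cycle transcripts, and after thinning to 1000 UMIs 2 of 45 untreated tumor cells held at least 2 UMIs of the 4 markers. Fibroblast-like cells showed another order, with 10 of 2638 (0.379%, 0.182 to 0.696) untreated, 0 of 1918 regressed, and 80 of 3502 (2.28%, 1.82 to 2.84) progressed. Of the epidermal-like cells, 32 of 244 (13.1%, 9.15 to 18.0) were in the Dividing cluster in the Untreated tumor. In the regressed tumor 5 of 228 (2.19%, 0.716 to 5.04) were, and in the progressed tumor 57 of 460 (12.4%, 9.52 to 15.8). These include 19, 4 and 39 cells with at least 2 UMIs of 6 hair keratins. Of the 39, 14 held none of the 4 markers. Outside the cluster, such progressed cells were 14 of 194 in Undefined1 and 0 of 209 in Undefined2, the clusters taken as epidermal. The denominators thus hold few non-dividing cells of this kind, and the epidermal-like shares cannot be read as rates of division. By the likelihood calls the regressed tumor had the highest share in the tumor-like lineage and the lowest in both others. Outside the cluster this order did not hold for every measure. After the same thinning, at least 3 G2/M UMIs were found in 3.35%, 9.58% and 4.21% of untreated, regressed and progressed stroma cells. In the epidermal clusters the shares were 14.9%, 17.5% and 10.8%. At least 2 UMIs of the 4 markers were in 0 of 2599, 0 of 1733 and 2 of 3400 stroma cells. For epidermal cells these were 5 of 208, 1 of 200 and 3 of 398. For regressed fibroblast-like cells the count of 0 of 1918 allowed 0.156% and the exact interval reached 0.192%, which overlapped that of the Untreated tumor. By marker score without a mural list the tumor-like shares of the treated tumors, 4.43% and 4.19%, no longer differed beyond their intervals, and the fibroblast-like shares were 0.417% untreated, 0.776% regressed and 2.26% progressed. With the mural list kept, the untreated share was 0.190%. The order of the Untreated and Vemu Regressed tumors in fibroblast-like cells thus turned with the calling method.

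**Figure D3:**
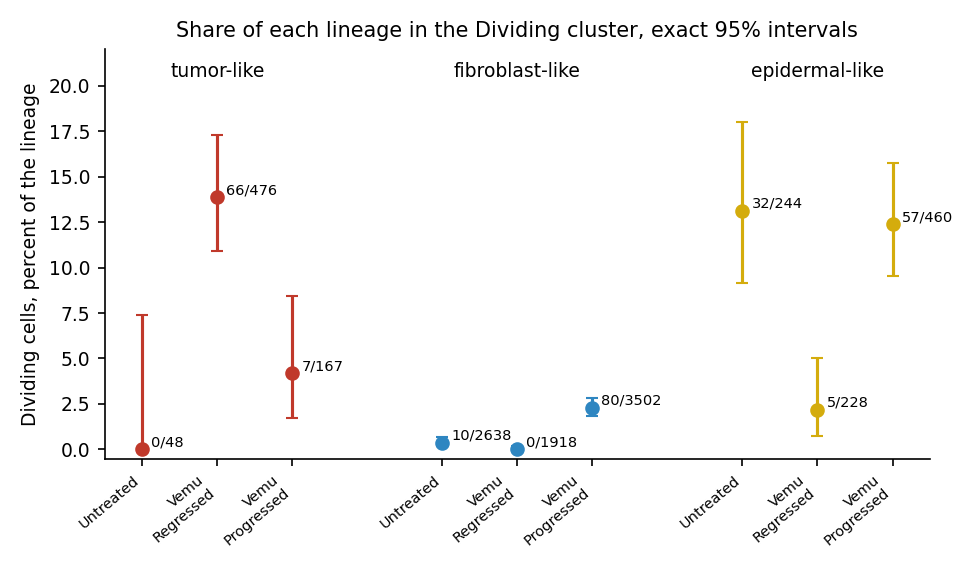
Dividing cells as a percent of all cells of a lineage in each tumor (all-gene likelihood), with exact 95% intervals and the counts beside each point. The regressed tumor stands highest in tumor-like cells (66/476) and lowest in fibroblast-like (0/1918) and epidermal-like cells (5/228).

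The tumor-like dividing cells of the regressed tumor were checked against the transgene, the label of tumor cells. The tables hold it as tdTomato and tWPRE, and tdTomato held 0 UMIs in tumor-like dividing cells. tWPRE was at 1337 CPM in the 66 cells (20 cells with at least 2 UMIs, 18 with 1, 28 with 0) and in all 7 progressed ones with at least 2 UMIs. With every cell thinned to 400 UMIs, 31.8% (20.9 to 44.4) of the 66 cells still held a transgene UMI, against 30.9% of the regressed tumor's Tumor2 cells, 43.3% of its Tumor1 cells and 1.83% of its stroma. Stroma cells of that tumor that were themselves under 1000 UMIs held it in 2.22%, and immune cells of that depth in 5.39%. The share in dividing tumor-like cells was thus that of the tumor clusters and above that of stroma and immune cells at equal depth. The transgene was also among the genes of the likelihood, so it is not independent of the call. The cells lay nearest to Tumor2, a cluster with 349 cells in the regressed tumor and 4 in each of the others, at a median of 768 UMIs, so that nearness to Tumor2 and the regressed library cannot be told apart.

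Genes of the melanocyte lineage were present in part. Sox10, the transcription factor of neural crest and melanocytes, was at 255 CPM in the regressed dividing tumor-like cells, 438 CPM in Tumor2, and 501 CPM in the progressed dividing tumor-like cells. The pigment gene Dct held 1 UMI in 1 of 66 regressed cells and 0 in the 7 progressed ones, and Pmel and Tyrp1 held 0 in both. In Tumor2 these 3 genes held 665, 199 and 73 UMIs, each in 9 of 349 cells. Dividing tumor-like cells thus held Sox10 and were nearly empty for these 3 pigment genes, each of which was also at 0 in most Tumor2 cells.

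Inhibitors and cyclins of the G1 step differed between the tumor-like cells. Cdkn2a, which codes for p16 and p19Arf, held 0 UMIs in the 66 regressed dividing cells, which allows up to 38.2 CPM, while it was at 47.2 CPM in Tumor2, 536 CPM in the regressed Tumor1 cells and 464 CPM in the 7 progressed dividing cells. Cdkn2c (p18) was at 191 CPM in the regressed dividing cells against 42.7 CPM in Tumor2, and Cdkn2d (p19) at 318 against 89.9 CPM. Cyclin D2 (Ccnd2) was at 344 CPM against 1029 CPM in Tumor2, cyclin D1 (Ccnd1) at 573 against 710 CPM, and Ccnb1 at 497 against 2.25 CPM. In progressed dividing tumor-like cells, Ccnd1 was at 1503 CPM and Ccnd2 at 390 CPM. Ccnd2 was therefore lower in dividing than in non-dividing tumor cells of both treated tumors (1373 CPM in the progressed Tumor1 cells), and Ccnb1 higher.

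The 7 progressed and 66 regressed tumor-like dividing cells differed in further programs. Hypoxia genes (15 genes, many of them of glycolysis) were at 5181 CPM in the regressed and 742 CPM in the progressed cells, a log2 ratio of -2.80 (-3.31 to -2.33) for progressed over regressed. Ldha, lactate dehydrogenase, was at 1782 CPM against 241 CPM, and Aldoa, an aldolase, at 1617 against 260 CPM. MAPK targets are 9 genes switched on by the pathway, some of which, such as Dusp6 and Spry4, feed back on it. These targets stood 1.66 (1.25 to 2.08) higher on the log2 scale in progressed cells, and antigen presentation genes 2.43 (2.07 to 2.80) higher. B2m, the light chain of class I molecules, was at 726 CPM in the regressed and 4509 CPM in the progressed cells, and H2-K1, a class I heavy chain, at 140 and 761 CPM. Extracellular matrix genes stood 0.98 (0.80 to 1.15) higher. Non-dividing tumor cells gave -2.13, 1.16, 1.35 and 0.81 for the same 4 lists, so that the direction of each was the same outside division. Non-dividing tumor cells were mainly Tumor2 in the regressed (349 of 410) and Tumor1 in the progressed tumor (156 of 160), so cluster and treatment cannot be told apart.

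Cycle genes were next summed as lists of 42 S-phase and 52 G2/M genes. Over all dividing cells the G2/M list was at 9200 CPM in the Untreated, 21804 CPM in the Vemu Regressed and 8923 CPM in the Vemu Progressed tumor, while the S-phase list was at 3340, 3406 and 2958 CPM. The log2 ratio of the regressed to the Untreated tumor was 1.24 for G2/M and 0.03 for S phase. With cells weighted equally the S-phase ratio was 0.29, and without the deepest 5% of cells it was 0.33. Summed values weight deep cells, and in the regressed tumor 5 epidermal-like cells gave 48.9% of the UMIs (1 of them 21.8%) and the 66 tumor-like cells 38.2%. Within lineages, tumor-like cells held 21884 CPM of G2/M transcripts when regressed and 19574 CPM when progressed. It was at 9132, 21457 and 9474 CPM in epidermal-like cells of the Untreated, Vemu Regressed and Vemu Progressed tumors, and at 9223 and 7547 CPM in fibroblast-like cells of the Untreated and Vemu Progressed tumors. High G2/M levels were therefore found in tumor-like cells of both treated tumors and in every lineage of the regressed one.

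Gene by gene, 33 of 51 tested G2/M genes were at least 2-fold higher in the regressed than in the untreated dividing cells and 0 were 2-fold lower, where 13.8% of all 5947 genes were higher and 10.5% lower. Their median log2 ratio was 1.27, against 0.05 over all genes. Hmmr, a spindle protein, was at 77.3, 360 and 81.2 CPM in the Untreated, Vemu Regressed and Vemu Progressed tumors. Cenpf, a kinetochore protein, was at 288, 982 and 246 CPM, and Ube2c, which feeds the anaphase promoting complex, at 446, 1239 and 616 CPM. From the regressed to the progressed tumor 37 of 52 were at least 2-fold lower and 0 higher, against 12.9% lower and 14.6% higher of 9531 genes, with a median of -1.33 against -0.04. Between the progressed and the Untreated tumor 0 of 52 passed in either direction, against 11.6% higher and 3.44% lower of 9873 genes. S-phase genes showed no such shift, with 3 higher and 4 lower of 34, 3 higher and 4 lower of 41, and 2 higher and 3 lower of 41 in the same order of comparisons. Pcna, the replication clamp, was at 88.9, 82.6 and 68.2 CPM. The regressed cells alone lay apart in G2/M, and their lineages and depth differ from those of the other tumors. The lowest single-cell G2/M level was 3317 CPM in regressed tumor-like cells. It was 870 and 2565 CPM in untreated, and 432 and 796 CPM in progressed, epidermal-like and fibroblast-like cells. In the deeper regressed epidermal-like and progressed tumor-like cells it was 13231 and 11149 CPM. Clustering used the cycle genes, and whether shallow cells needed a higher G2/M level to enter the cluster was not tested.

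Other cycle groups gave mixed counts, which are read against the same shares of all genes (13.8% higher and 10.5% lower from the Untreated to the regressed, 14.6% higher and 12.9% lower from the regressed to the progressed tumor). Of 8 passenger and checkpoint genes 4 were at least 2-fold higher in the regressed than in the untreated cells, and 5 were lower from the regressed to the progressed. Licensing genes gave 0 higher and 1 lower of 9, then 2 higher and 0 lower of 10. Of 8 cyclins 1 was higher and 1 lower in each of these comparisons, a share near that of all genes. Cdk4, the partner of D cyclins, was at 738, 364 and 693 CPM in the Untreated, Vemu Regressed and Vemu Progressed tumors. Cdk1, the mitotic kinase, was at 183, 588 and 271 CPM.

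S-phase transcripts took different parts of the cycle UMIs in different lineages. In fibroblast-like cells of the progressed tumor they were 29.7% (28.8 to 30.7) of the S and G2/M UMIs together, against 20.6% (18.5 to 22.9) in those of the Untreated tumor. In tumor-like cells they were 14.7% (13.2 to 16.4) in the regressed and 13.2% (11.3 to 15.2) in the progressed tumor, which overlap. Epidermal-like cells gave 28.5%, 10.96% and 22.4% in the Untreated, Vemu Regressed and Vemu Progressed tumors. Single cells with more S than G2/M UMIs were 34 of 80 (42.5%, 31.5 to 54.1) among progressed fibroblast-like cells and 2 of 66 (3.03%, 0.369 to 10.5) among regressed tumor-like cells. The latter held a median of only 3 S-phase UMIs and 17 G2/M UMIs, and 7 of them held 0 of S phase, so that a cell in S phase was hard to see at their depth. Whether shallow S-phase tumor cells were left in Tumor2 was not tested.

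**Figure D4:**
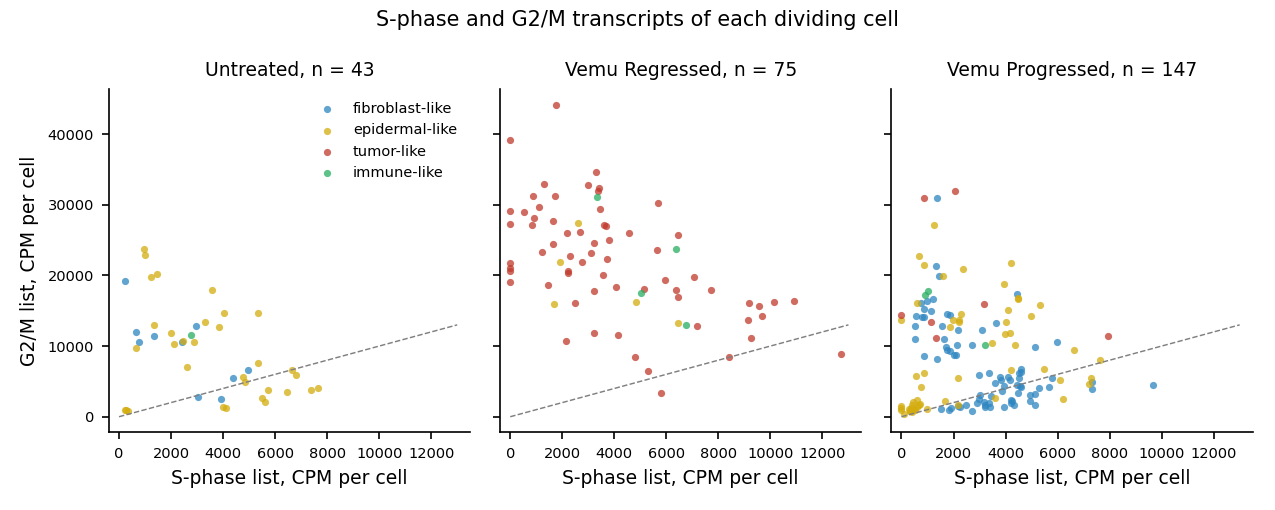
Each point is 1 dividing cell, with the S-phase list on the horizontal and the G2/M list on the vertical axis, both in CPM of the cell's UMIs, for the 3 tumors; the dashed line marks equal levels. Regressed tumor-like cells lie high on the G2/M axis, with 2 of 66 under the line, while 34 of 80 progressed fibroblast-like cells lie under it.

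Lists outside the cycle are read against the same shares of all genes, 13.8% higher and 10.5% lower in the first and 14.6% higher and 12.9% lower in the second comparison. Of 12 matrix genes 9 were at least 2-fold lower in regressed dividing cells than in untreated ones, and 10 of 13 were higher from the regressed to the progressed, the tumors with 0 and 80 fibroblast-like dividing cells. Of 9 hypoxia genes 6 were higher in the first and 11 of 12 lower in the second comparison. Of 7 immediate early genes, which respond within minutes to growth signals and to tissue handling, 6 were lower and 1 higher in the first, and 6 higher and 1 lower in the second. Fos was at 2329, 666 and 2488 CPM and Jun at 1501, 481 and 1590 CPM, so the regressed cells were the lowest in both. Within epidermal-like dividing cells the summed immediate early ratio of regressed to untreated was -0.95 (-1.11 to -0.80), near the -1.20 over all dividing cells, and it was -0.74 in non-dividing fibroblast-like and -1.04 in non-dividing tumor cells. The lower level of this list was thus found within lineages and outside division too.

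Fibroblast-like dividing cells expressed the matrix genes of stroma. Col1a1, type I collagen, was at 6715 CPM in the 10 untreated and 9275 CPM in the 80 progressed cells, against 6804 and 7198 CPM in the stroma clusters of the same tumors. Cd34, a surface glycoprotein of dermal fibroblasts and progenitors, was at 1069 and 749 CPM against 230 and 401 CPM in stroma, and Fbn2, the microfibril protein fibrillin 2, at 690 and 988 CPM against 186 and 482 CPM. Ccl2, a monocyte chemokine, was at 3008 and 1661 CPM against 320 and 947 CPM, where 1 untreated cell held 231 of the 349 UMIs. Cd34 and Fbn2 were therefore above the stroma average in both tumors, while Cxcl1, a neutrophil chemokine, was not, at 336 and 750 CPM against 719 and 845 CPM. This average pools all stroma clusters, and the cluster nearest to most of these cells was not compared on its own.

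The progressed fibroblast-like cells lay nearest to Stroma5 (44 cells), Stroma4 (15), Stroma6 (14), Stroma3 (5) and Stroma2 (2), and the untreated ones to Stroma5 (6), Stroma3 (3) and Stroma2 (1). With Stroma5 as denominator, 6 of its 171 untreated cells (3.51%, 1.30 to 7.48) and 44 of its 798 progressed cells (5.51%, 4.03 to 7.33) divided, which overlap. The cells near Stroma6 carried more S-phase than G2/M transcripts (4677 and 4407 CPM), and those near Stroma5 fewer (2856 and 7590 CPM). Licensing genes stood far above the non-dividing stroma of the progressed tumor, at a log2 ratio of 3.27 (3.14 to 3.399), and Mcm5, a subunit of the helicase, was at 129 CPM against 5.46 CPM. Rrm2, which makes deoxynucleotides, was at 135 against 1.71 CPM.

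Epidermal-like dividing cells fell into 2 kinds by hair keratins. Among the 15 genes that stood out most in the whole cluster were 6 keratins, Krt25, Krt27, Krt28, Krt71 and Krt73 of the inner root sheath and Krt35 of the hair shaft, along with Dlx3 and Msx2, homeobox factors of the hair matrix. The other genes of that list were Ccnb1, Pbk, Pimreg, Hmmr, Ube2c, Cenpf and Pclaf, all of the cycle. At least 2 UMIs of the 6 keratins, chosen as a group after their values were seen, were found in 19 of 32 (59.4%), 4 of 5 (80%) and 39 of 57 (68.4%) epidermal-like dividing cells of the Untreated, Vemu Regressed and Vemu Progressed tumors, and in 0 dividing cells of any other lineage. Hair keratin cells were thus 62 of all 265 dividing cells.

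The Dividing cluster held most of these transcripts in 2 tumors, with 839 of 1184 UMIs (70.9%) in the Untreated, 38 of 126 (30.2%) in the Vemu Regressed and 3167 of 3385 (93.6%) in the Vemu Progressed tumor. Krt25 was at 591, 63.2 and 291 CPM of the dividing cells and Krt71 at 489, 34.0 and 253 CPM. Krt35 was at 7.73 CPM in the Untreated tumor (4 UMIs in 1 cell), 0 UMIs in the Vemu Regressed and 878 CPM in the Vemu Progressed tumor (1482 UMIs in 16 cells). Inner root sheath keratins were therefore shared by both larger groups, and Krt35 came from 16 cells of 1 tumor.

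Cells with hair keratins differed from the other epidermal-like dividing cells in genes outside that list. Msx2 was at 348 CPM in the untreated and 445 CPM in the progressed hair keratin cells, against 55.0 and 0 CPM in the rest. Dlx3 was at 262 and 330 CPM against 27.5 and 7.92 CPM, and Lef1, the Wnt effector of hair matrix, at 100.1 and 205 CPM against 2 UMIs and 1 UMI. The basal keratins ran the other way. Krt14 was at 481 and 230 CPM against 6837 and 11831 CPM, and Krt5 at 1463 and 601 CPM against 6606 and 7484 CPM. Ccnd2 was higher in hair keratin cells, at 1277 and 1195 CPM against 627 and 341 CPM. The 4 regressed hair keratin cells did not share this pattern, with 0 UMIs of Msx2, 1 of Lef1 and 3689 CPM of Krt14. The same cells were used to form the split, so these values describe it.

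Many hair keratin cells of the Vemu Progressed tumor carried few cycle transcripts. In that tumor their median G2/M level was 2364 CPM, against 12510 CPM in the other epidermal-like dividing cells and a summed level of 1239 CPM in the epidermal-like cells outside the cluster. In the Untreated tumor the median was 6659 CPM and in the Vemu Regressed tumor 16114 CPM, and 1 of 19 and 0 of 4 hair keratin cells there held none of the 4 markers. Of the 23 progressed cells with no UMI of the 4 markers, 14 were epidermal-like and all 14 held hair keratins, with a median of 1076 CPM of G2/M and 378 CPM of S-phase genes. The other 9 were fibroblast-like, and their median S-phase level was 2705 CPM (26 UMIs a cell). The progressed members without markers were thus hair keratin cells with little of either list and fibroblast-like cells with S-phase genes, and for the former the name Dividing rests on no marker of division. Of the other tumors, the untreated cell without markers held hair keratins, and the regressed one was tumor-like, with 17742 CPM of G2/M genes.

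**Figure D5:**
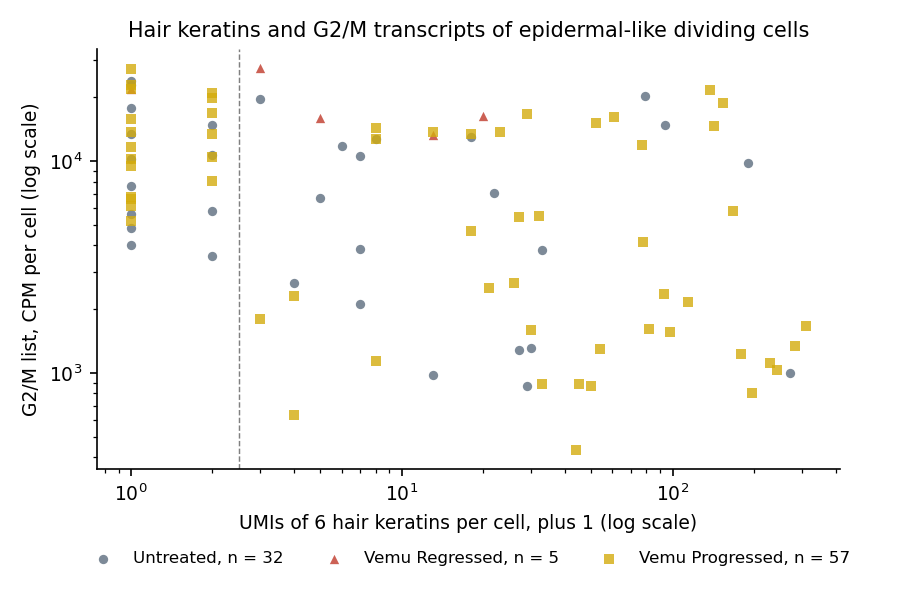
Each point is 1 epidermal-like dividing cell, with the UMIs of the 6 hair keratins plus 1 on the horizontal and the G2/M list in CPM on the vertical axis, both log scales; cells right of the dashed line held at least 2 UMIs. The 32 cells left of the line range from 3549 to 27167 CPM of G2/M, and the 62 cells right of it from 432 to 27373 CPM.

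Few immune cells lay in the Dividing cluster. They were 8 in all, 1 T/NK-like cell untreated, 4 T/NK-like cells regressed, and 2 dendritic-like and 1 macrophage-like cell progressed. The share of T/NK cells was 1 of 41 (2.44%), 4 of 242 (1.65%, 0.452 to 4.18) and 0 of 41, which allows up to 7.32%. Cd3g, a subunit of the T cell receptor complex, held 33 UMIs in the untreated cell and 46, 50, 6 and 64 UMIs in the 4 regressed cells. Gzmb, a cytotoxic granule protease, held 48 UMIs in the untreated cell and 0 in the 4 others. Cd74, the invariant chain, held 685 and 803 UMIs in the dendritic-like cells, and Lyz2, a lysozyme of macrophages, 24 UMIs in the macrophage-like cell. Immune clusters outside it also held cycle transcripts. After thinning to 1000 UMIs, at least 1 UMI of the 4 markers was found in 18 of 224 regressed and 3 of 41 progressed T/NK cells and in 16 of 156 progressed dendritic cells, 8 of which held at least 2. NK_T and Monocytes2 had the highest summed level of the 4 markers among the other clusters, at 267 and 233 CPM.

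Genes with the greatest fold between tumors, taken over all dividing cells, were of several kinds. Many were carried by a lineage seen in the dividing cells of only 1 of the compared tumors. Some came from single cells, and others, such as Krt35, also differed within a lineage. From the regressed to the progressed tumor the lowest ratios belonged to Nkg7, Cd3e and Cd3g, whose 76, 56 and 173 regressed UMIs lay in the T/NK-like cells but for 1, 1 and 7, to Syt4, a synaptotagmin with 48 of 52 UMIs in tumor-like cells, and to S100a9. The highest belonged to Krt35, Ccl2, Cxcl1, Fbn2 and Col14a1, of which the last 4 were carried by fibroblast-like cells. Fbn2 was at 514 CPM in the progressed and 14.6 CPM (3 UMIs) in the regressed dividing cells, a log2 ratio of 5.14 (3.59 to 7.42). From the Untreated to the regressed tumor, Cadm4, a cell adhesion gene, was at 1.93 and 190 CPM and Col20a1 at 1.93 and 136 CPM, with 35 of 39 and 28 of 28 regressed UMIs in tumor-like cells. Csta3 and Stfa1, cystatin genes, owed 32 of 33 and 30 of 30 UMIs to 1 cell each, and Akr1c18, among the lowest ratios, 64 of 64 untreated UMIs to 1 cell.

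From the Untreated to the progressed tumor, Krt35, Reln, H2-Aa, H2-Ab1 and Cd74 had the highest ratios. The class II genes were carried by the 2 dendritic-like cells, which held 609 of 706 UMIs of H2-Aa, 791 of 947 of H2-Ab1 and 1488 of 1761 of Cd74. Without these cells the class II list was at 411 CPM in place of 2481 CPM, against 156 CPM in the Untreated and 1050 CPM in the Vemu Regressed tumor, so that the regressed tumor was then the highest. Reln, an extracellular glycoprotein, was at 1.93 and 50.4 CPM, with 74 of 85 progressed UMIs in fibroblast-like cells. The lowest ratios belonged to S100a9, S100a8, Gzmb, Cd3g and Krt75, a companion layer keratin with 61 of its 75 untreated UMIs in 1 cell.

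S100a8 and S100a9, calprotectin genes of neutrophils, were spread over nearly all untreated cells. S100a8 was found in 42 of 43 untreated, 26 of 75 regressed and 3 of 147 progressed dividing cells, at 350, 267 and 1.78 CPM. Stroma held it in 77.7%, 55.6% and 1.20% of cells, at 340, 281 and 2.62 CPM, and the tumors held 391, 216 and 4 cells of the neutrophil cluster. The level in dividing cells was thus close to that of stroma, and the number of neutrophils had the same order over the tumors. Cma1, a mast cell chymase, was at 136 CPM in regressed dividing cells and 142 CPM in regressed stroma. Whether these levels are background RNA was not tested, and no difference between dividing cells is drawn from the 3 genes.

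Epidermal-like cells were the lineage with at least 20 dividing cells by likelihood in 2 tumors, and 57 progressed could be set against 32 untreated ones. Of 7273 genes 6.68% were at least 2-fold higher and 2.17% lower in the progressed cells. Among G2/M genes 1 of 51 was higher and 0 lower, and among S-phase genes 0 of 37 were higher and 6 lower. The summed S-phase ratio was -0.41 (-0.51 to -0.31) on the log2 scale and the G2/M ratio 0.05, with an interval that spans 0. Outside the cycle, Krt35, at 10.2 and 1935 CPM, Krt1, a keratin of differentiating epidermis, at 5.11 and 107 CPM, and Enpp2, which makes lysophosphatidic acid, at 2.55 and 51.0 CPM led the higher genes. Of the 82 progressed Krt1 UMIs in these cells, 68 lay in 1 cell. S100a8, S100a9 and Gnmt led the lower ones, and 18 of 22 untreated Gnmt UMIs lay in 1 cell.

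The libraries differed in ways that stand beside these results. Haemoglobin genes were 0.316% of the UMIs of regressed dividing cells and 0.00734% and 0.000237% of those of the untreated and progressed ones, and 4.02% of the other regressed cells' UMIs. Xist was at 1547, 0 and 2045 CPM and Y-linked genes at 3.86, 136 and 0.593 CPM in the dividing cells of the Untreated, Vemu Regressed and Vemu Progressed tumors, so sex and treatment cannot be told apart for the regressed tumor. Their part in the results was not tested. No cell name was shared between libraries, and the names held no barcode.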

How the data were processed

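Single cells of 3 mouse melanomas were profiled with the 10x Chromium 3′ v2 kit. The authors deposited raw UMI counts per gene and cell, aligned per the labels with GSNAP to GRCm38 (mm10), and a table of cluster names made with Seurat 2.2.0. In the deposited count tables the dividing cells held 5.68% more UMIs than in the deposited cell table, and the count tables were used. Of 36530 features 31049 matched a RefSeq symbol, and features without one held 4.62% of the dividing UMIs. Counts were summed over cells and scaled to CPM, with the total UMIs of the same cells as denominator.

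Shares have exact Clopper-Pearson and CPM exact Poisson intervals, and log2 ratios have exact conditional binomial ones. Genes needed 20 UMIs over both tumors, a fold of 2 was called, and a group at 0 was set to 3 UMIs. With 1 tumor a group there was no test and no p-value. Marker scores needed 2 UMIs of a list and a score of 0.1. Cells were thinned to 1000 or 400 UMIs with seed 1, and cells below that depth were left out. Named genes were list members, the 15 of highest fold in the cluster with 200 UMIs or more, and the 5 highest and 5 lowest ratios a comparison (3 within a lineage) at 50 CPM or more. Members and lists were chosen with earlier results of these data known. Scripts were tested on simulated data and ran in Python 3.11.15 (numpy 2.4.6, scipy 1.17.1, pandas 2.3.3, matplotlib 3.10.9), and TMM factors came from edgeR 4.0.16 in R 4.3.3. Some items are not reported here.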

Additional observations from a re-analysis of the deposited data

Results flagged for a closer look

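The share of dividing cells moved in opposite directions in different lineages. From the Untreated to the Vemu Regressed tumor it moved by 13.9 percentage points in tumor-like, -0.379 in fibroblast-like and -10.9 in epidermal-like cells. From the Vemu Regressed to the Vemu Progressed tumor it moved by -9.67, 2.28 and 10.2 percentage points in the same order. By marker score without a mural list the tumor-like shares were 4.43% regressed and 4.19% progressed, with overlapping intervals. The untreated count of 0 of 48 had an exact interval up to 7.40%. The size of the tumor-like differences thus depended on the calling method. By marker score the fibroblast-like share went from 0.190% untreated to 0.776% regressed, so the sign of that difference turned with the calling method. Outside the cluster, stroma and epidermal cells with at least 3 G2/M UMIs after thinning had their highest share in the regressed tumor. A stricter count of the 4 markers did not show this. The epidermal-like shares also count hair keratin cells, and 14 of the 39 progressed ones held none of the 4 markers. In the Vemu Progressed tumor, the epidermal clusters held few such cells, at 14 of 194 in Undefined1 and 0 of 209 in Undefined2. The epidermal-like differences are therefore differences in cluster membership and cannot be read as changes in the rate of division. With 1 tumor in each group these differences between lineages were not tested.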

How the results depend on the processing

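The order of tumors turned in some alternatives. Cells with at least 3 G2/M UMIs after thinning were 5.22%, 12.3% and 7.57% (Untreated, Vemu Regressed, Vemu Progressed), which put the regressed above the progressed tumor. That measure also took 25 of 142 regressed neutrophils, and its shares cannot be read as shares of dividing cells. The share of the Dividing cluster was 1.09% in regressed cells of at least 1000 UMIs. By likelihood the untreated epidermal-like share was 74.4% (44.2% by score), the regressed tumor-like 88% (25.3%) and fibroblast-like 0% (20%), and the progressed fibroblast-like 54.4% (40.8%) and epidermal-like 38.8% (26.5%). Without the mural list, a choice made after seeing the data, the fibroblast-like shares were 25.6% untreated (11.6% with it) and 53.7% progressed. A minimum of 4 UMIs gave 5.33% regressed tumor-like and 51.7% progressed fibroblast-like cells, and thinning gave 12.1% regressed epidermal-like (4%) and 53.7% progressed fibroblast-like cells. By marker score, also chosen after seeing the data, 4.43% of regressed tumor-like cells divided, 0.190% of untreated, 0.776% of regressed and 1.72% of progressed fibroblast-like cells (0.379%, 0% and 2.28% by likelihood), and 8.23% of untreated and 8.82% of progressed epidermal-like cells.

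The S-phase log2 ratio of regressed to untreated was 0.29 with cells weighted equally and 0.33 without the deepest 5%. That of progressed to regressed was -0.51, -0.50 and, thinned, -0.49, and that of progressed to untreated -0.34 thinned. The G2/M ratio of regressed to untreated was 1.13 with TMM and 1.08 thinned. That of progressed to regressed was -1.21 with TMM, -1.35 weighted equally and -1.37 without the deepest, and that of progressed to untreated -0.11, -0.25 thinned and -0.15. The causes were not tested. With a minimum of 50 UMIs, 279 genes were higher and 264 lower (regressed against untreated), 829 and 607 (progressed against regressed) and 570 and 130 (progressed against untreated). With no minimum, 3020 were higher and 1251 lower for regressed against untreated, 1463 higher and 4123 lower for progressed against regressed (1388 and 1231 as reported), and 1653 higher and 1622 lower for progressed against untreated. With TMM, 697 were higher and 762 lower for regressed against untreated (821 and 622 as reported), so that the majority turned in this and in the unfiltered comparison of progressed with regressed. Shallow regressed cells limit what can be seen of rare transcripts. No paired analysis was possible because each group is 1 tumor and the labels carry no replicate numbers.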

Other observations

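Dividing cells were also compared with the non-dividing cells of their own lineage and tumor, as values with no test. Immediate early genes were lower in dividing cells in 10 of 11 groups. The log2 ratio was -1.69 in untreated and -1.02 in progressed fibroblast-like cells, -0.38, -0.98 and -0.66 in epidermal-like cells of the Untreated, Vemu Regressed and Vemu Progressed tumors, -0.83 and -1.14 in regressed and progressed tumor-like cells, and -1.60 in regressed T/NK-like cells. In the single untreated T/NK-like and progressed macrophage-like cells it was -1.15 and -1.47. In the 2 dendritic-like cells it was 0.10, with an interval that spans 0.

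Antigen presentation genes had no common direction. Their log2 ratio was -0.99 in progressed and -0.31 in untreated fibroblast-like cells, -0.66, 0.14 and -1.30 in epidermal-like cells of the Untreated, Vemu Regressed and Vemu Progressed tumors, and -0.93 in regressed and 0.16 in progressed tumor-like cells. Licensing genes, which load the replicative helicase, stood at 2.89 untreated and 3.27 progressed in fibroblast-like cells, at 1.96, 1.34 and 1.501 in epidermal-like cells, and at 0.77 regressed and 0.83 progressed in tumor-like cells. Cyclins stood at 1.77 and 1.11 in fibroblast-like, at 1.53, 1.501 and 1.34 in epidermal-like and at 0.30 and 0.24 in tumor-like cells. In both lists tumor-like cells had the lowest ratios of these 3 lineages, and a ratio depends on the non-dividing level too. Licensing genes were at 904 CPM in regressed dividing tumor-like cells against 665 CPM in Tumor2. In the progressed tumor they were at 538 CPM against 307 CPM in Tumor1. Cyclins were at 2381 against 1962 CPM and at 4156 against 3543 CPM in the same comparisons. Clustering used the cycle genes, so the licensing and cyclin values are a description.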
